A study of Mus musculus with 6 samples.

Results

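The genes described here encode the receptors through which mouse cells can respond to progesterone and to related steroid hormones. They were chosen by name: the nuclear receptors for progesterone (Pgr), glucocorticoids (Nr3c1), mineralocorticoids (Nr3c2) and estrogens (Esr1 and Esr2), the membrane-associated progesterone receptor components Pgrmc1 and Pgrmc2, and the membrane progestin receptors Paqr7 and Paqr8. A probe set, a group of short probes that reads 1 transcript, was taken as a member where the platform's annotation gives it exactly 1 symbol from this list. That gave 23 probe sets for 9 genes, of 45037 probe sets and 18193 genes in all. The symbols of all 9 genes were unchanged when set against the RefSeq gene table.

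Steroid hormones cross the cell membrane and bind nuclear receptors, which are held ready by chaperones such as HSP90 and, once bound, act on DNA as transcription factors with the help of coactivators and corepressors. Progesterone can also act through proteins outside the nuclear receptor family: the PAQR receptors, which span the membrane, and the PGRMC proteins, which bind heme and have been tied to steroid signalling and to cytochrome P450 enzymes. In heart muscle the glucocorticoid and mineralocorticoid receptors are the best known of the nuclear steroid receptors, while Pgr is known mainly from reproductive tissue.

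The study measured mRNA of the ventricular apex in mice with a transgene for PR-M, a human progesterone receptor located in mitochondria, on Affymetrix Mouse Genome 430 2.0 arrays. The labels name 3 arrays as PR-M expressing and 3 as PR-M non-expressing, and all received 2.5 mg progesterone in oil under the skin for 19 to 21 days. No group went without progesterone, so the values show the receptors under the hormone and cannot show what the hormone did to them. The sources used here do not give the strain, the age, the promoter that drives PR-M or the way its expression was established, and nothing says that each array had an animal of its own, so p-values reflect only the spread among the arrays, which may be technical. All values are on the log2 scale as deposited, so a difference of 1 is a 2-fold change, and differences are given as expressing minus non-expressing.

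The 6 arrays correlated at 0.992 to 0.997 and none was a copy of another. All 8 ventricular muscle genes listed were above background in all arrays, as were 3 of 4 atrial genes. Several of the 8 are active in atrial muscle too, so this count shows heart muscle and does not itself set ventricle apart from atrium. Within the ventricular list Myl2 read 14.63 to 14.73 and Irx4 7.32 to 7.80 across the arrays. Myl7 of the atrial list read 9.22, 10.96 and 9.79 in expressing arrays and 6.68, 6.26 and 6.66 in non-expressing ones. Sample titles begin alike in the expressing group, while in the other group replicate 1 has a prefix that replicates 2 and 3 do not share, so prefix and group cannot be told apart. The control probe sets for 18S ribosomal RNA moved with the groups, with 8.31 ± 0.22 for expressing and 9.88 ± 0.38 for non-expressing arrays (SD, n = 3 each) and no overlap. For beta-actin the 3′ probe set exceeded the 5′ one, a sign of how complete the labelled RNA was, by 1.23 ± 0.05 and 1.38 ± 0.07 (SD, n = 3 each), also without overlap. For Gapdh the same measure was 0.17 ± 0.06 and 0.25 ± 0.07 (SD, n = 3 each), and there the groups overlapped. Atrial muscle genes were higher in the expressing arrays (4 of 4, with a log2 summed level of 11.2 to 13.1 against 9.22 to 10.9), as were fibroblast genes (6 of 6, at 14.3 to 14.4 against 14.1 to 14.2) and the 2 measured of 4 Schwann cell genes (7.88 to 8.07 against 7.52 to 7.65). Of these markers 3 atrial genes passed over genes (Myl4, Myl7 and Sln) and no fibroblast or Schwann cell gene did. The other atrial gene, Nppa, overlapped between groups, at 9.07, 11.27 and 10.24 against 10.74, 8.39 and 8.39. Of the Schwann cell genes Mbp differed by 0.88 and Sox10 by only 0.05. The summed levels of the other 8 of 11 marker lists overlapped. The part of these measures in the differences below was not tested. Fewer cells of a type and less RNA per cell cannot be told apart in such tissue samples.

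Because the deposited values carry no detection call, background was read from the 84 probe sets of olfactory, vomeronasal, taste and trace amine receptors, taken here as genes that ventricle does not use. A probe set was called above background in an array where it exceeded the 95th percentile of these 84, a level of 6.03 to 6.12 across the arrays. By that measure 8 of the 23 receptor probe sets were above background in all 6 arrays, against 41.5% of all probe sets. They belonged to 5 genes: Nr3c1, Nr3c2, Pgrmc1, Pgrmc2 and Paqr7. Of Pgr, Esr1, Esr2 and Paqr8 no probe set was above it in all arrays, and 14 of the 23 probe sets were above it in no array. The same 8 probe sets were found with the 90th or the 99th percentile and with the median of each array as the background. Against the highest of the TrpnX controls, probe sets for a bacterial transcript, which was at 3.49 to 3.78 across the arrays, 19 probe sets of all 9 genes lay above it, so for the dim receptors the call depends on the background chosen, and a low level and no expression cannot be told apart.

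**Figure D1:**
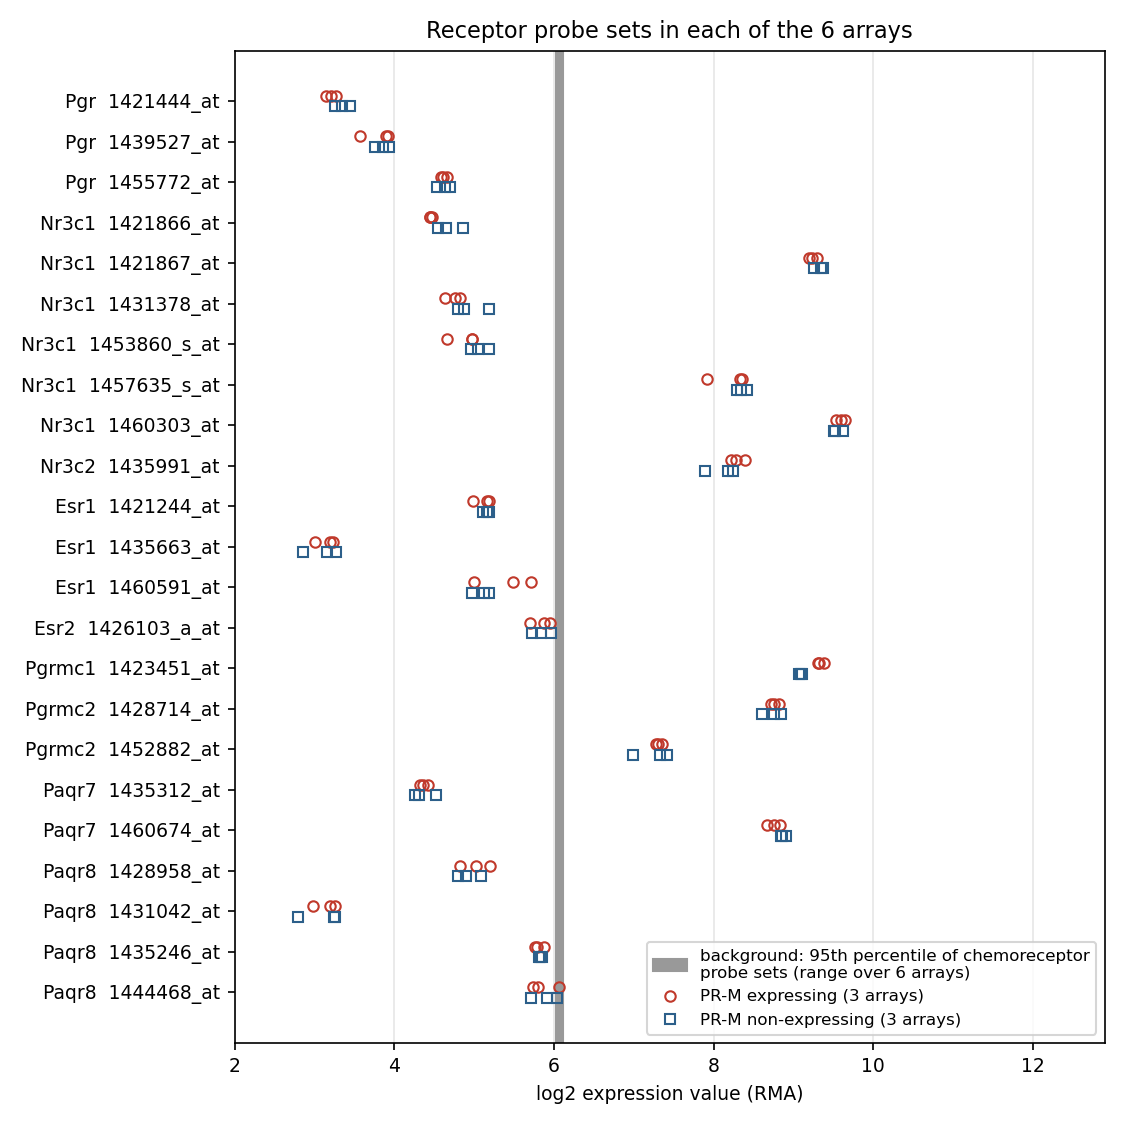
Log2 expression value (horizontal axis) of each receptor probe set (rows) in the 3 PR-M expressing arrays (circles) and the 3 non-expressing arrays (squares), with the background level as a grey band from 6.03 to 6.12. The probe sets fall into 8 to the right of the band and 15 at or left of it, and in 20 of the 23 rows the circles and squares overlap.

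Between the PR-M groups no receptor passed the test. None of the 23 probe sets had a limma adjusted p under 0.05, where 0.0133% of all probe sets did, and none of the 9 genes, each read by its brightest probe set, where 0.0660% of all genes did. At an unadjusted p under 0.05 there were 2 of the 23 probe sets, one of Pgrmc1 and one of Nr3c1, against 12.2% of all. The groups did not overlap in 3 of the 23, against 18.6% of all: 1 was higher in the expressing arrays (8.27% of all) and 2 were lower (10.3% of all). Both counts make a smaller share than that of the array as a whole. The median size of the difference was 0.07 over the 23 probe sets and 0.10 over all probe sets.

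The intervals give the precision of each difference, from the spread among these arrays alone. They do not give the smallest change that the test could find. Over the 8 probe sets above background in all arrays the differences ran from -0.15 to 0.24, and the 95% intervals together spanned -0.43 to 0.44. The lower bound is that of the Nr3c1 probe set 1457635_s_at and the upper that of Nr3c2, which corresponds to a 1.35-fold change. These intervals are not adjusted for the number of probe sets. In the 15 other probe sets the differences ran from -0.23 to 0.31, at values where the receptor's own signal was not told from background.

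**Figure D2:**
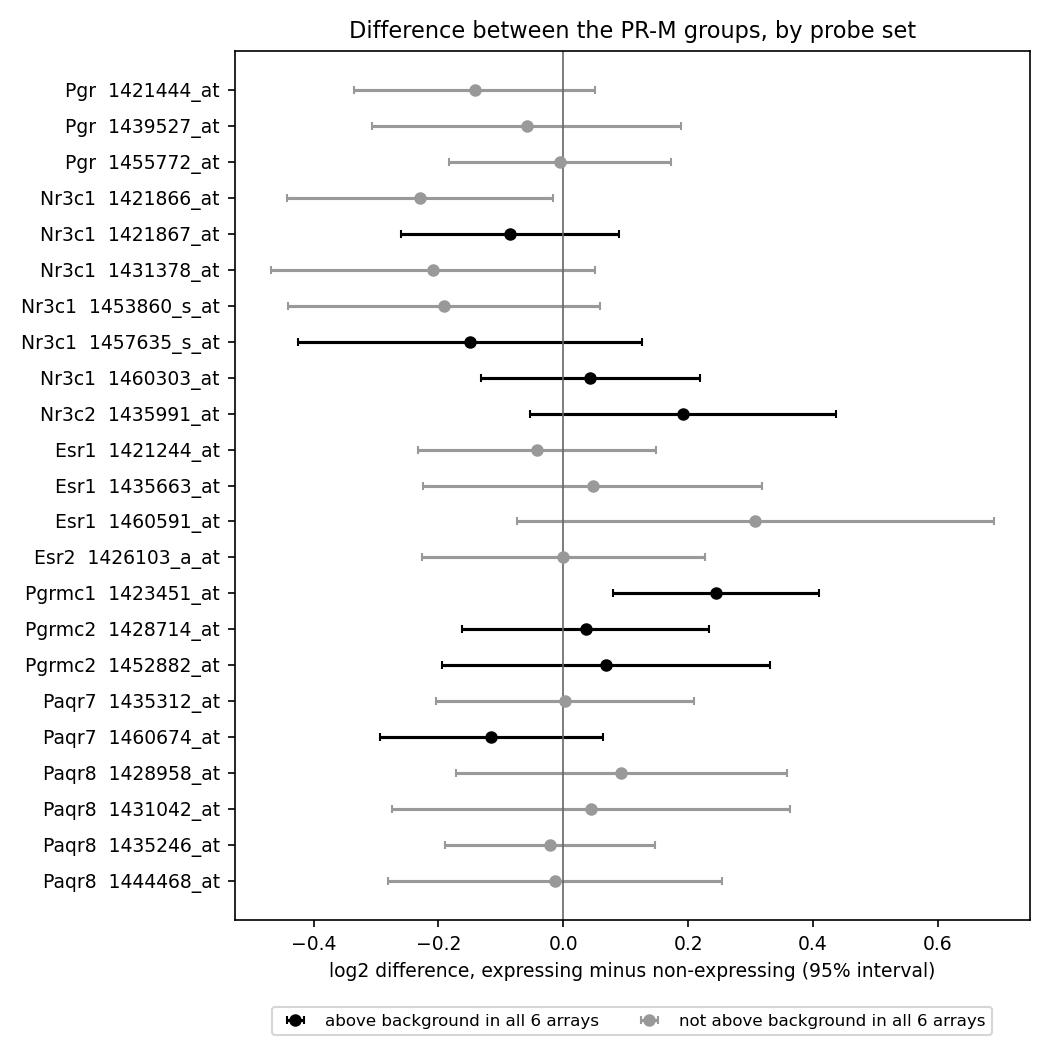
Log2 difference, expressing minus non-expressing (horizontal axis), of each receptor probe set with its 95% interval from limma (n = 3 and 3). Black marks the 8 probe sets above background in all arrays and grey the other 15, and only the intervals of Pgrmc1 (0.08 to 0.41) and of the dim Nr3c1 probe set 1421866_at (-0.44 to -0.02) leave out 0.

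Pgr, the mouse gene for the nuclear progesterone receptor, is the endogenous counterpart of the human transgene. Its 3 probe sets stayed below background in each array, and whether any of them also reads the human PR-M transcript is not known from the sources used here. At 1455772_at the expressing arrays read 4.66, 4.61 and 4.59 and the non-expressing arrays 4.63, 4.54 and 4.70. At 1439527_at they read 3.58, 3.92 and 3.89 against 3.94, 3.76 and 3.86. At 1421444_at they read 3.28, 3.14 and 3.21 against 3.34, 3.26 and 3.45. The groups overlapped at each of the 3. The differences were -0.01 (95% interval -0.18 to 0.17), -0.06 (-0.31 to 0.19) and -0.14 (-0.34 to 0.05), with limma adjusted p of 0.988, 0.861 and 0.527. Mouse progesterone receptor mRNA was not detected above this background in either group.

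The windows upstream of Pgr, the endogenous counterpart of the transgene, and of the PGRMC genes are shown because they differ in base composition. Each is the 250 bases before the RefSeq start of the gene (GRCm38.p6), 5′ to 3′ on the gene's strand. Capitals mark GGGCGG, the GC box, and AGAACA, a half-site bound by the progesterone, glucocorticoid and mineralocorticoid receptors, on either strand. The Pgr window lies at chr9:8899583-8899832 (+ strand), the Pgrmc1 window at chrX:36597943-36598192 (+ strand) and the Pgrmc2 window at chr3:41083047-41083296 (- strand).
Pgr: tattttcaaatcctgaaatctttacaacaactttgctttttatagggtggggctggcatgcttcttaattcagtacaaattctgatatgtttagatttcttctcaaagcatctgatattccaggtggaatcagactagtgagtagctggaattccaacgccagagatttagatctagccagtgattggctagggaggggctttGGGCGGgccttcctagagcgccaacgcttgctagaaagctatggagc
Pgrmc1: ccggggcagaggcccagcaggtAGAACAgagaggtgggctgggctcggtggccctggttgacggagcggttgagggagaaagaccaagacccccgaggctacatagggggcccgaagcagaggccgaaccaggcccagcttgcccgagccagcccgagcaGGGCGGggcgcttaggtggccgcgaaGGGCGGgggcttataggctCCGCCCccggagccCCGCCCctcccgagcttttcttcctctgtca
Pgrmc2: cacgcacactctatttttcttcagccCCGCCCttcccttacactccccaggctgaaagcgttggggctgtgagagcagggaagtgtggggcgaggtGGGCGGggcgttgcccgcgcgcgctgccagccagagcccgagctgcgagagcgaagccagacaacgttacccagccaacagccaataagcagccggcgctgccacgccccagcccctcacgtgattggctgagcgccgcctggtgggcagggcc

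The Pgr window held 43.6% G and C and 4 CpG dinucleotides, and 20.1% of all 32851 such windows in the table had a lower GC content. The Pgrmc1 window held 69.6% and 18 CpG, above 90.2% of all windows, and the Pgrmc2 window 67.2% and 20 CpG, above 86.5% of them. The median window held 52.4% and 6 CpG. The GC box was found 1 time for Pgr, 4 times for Pgrmc1 and 2 times for Pgrmc2, and 32.7% of all windows hold it at least 1 time. The AGAACA half-site was found 1 time in the Pgrmc1 window and not in the other two, and 16.1% of all windows hold it. Over the 11 windows of the 8 receptor genes that the table lists, 7 held the GC box, 3 the AGAACA half-site and 4 the estrogen receptor half-site GGTCA, which 35.2% of all windows hold, with both strands searched for each. Nr3c1 was not matched. Whether base composition goes with detection over the receptors was not tested. Paqr8, which was not above background in all arrays, had a window with 62.0% G and C and another with 46%. They held 13 and 4 CpG, and each held a GC box. Paqr7, which was above background, had a window with 52.8%, 7 CpG and no GC box. Another window of Paqr7 held 64.8%, 18 CpG and a GC box. A match is only a run of letters, and neither a match nor its lack says whether a receptor binds there.

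Nr3c1 encodes the glucocorticoid receptor, a nuclear receptor that progesterone can also bind, with lower affinity than its own receptor. Of its 6 probe sets, 3 were above background in all arrays and 3 in none. At 1460303_at, the brightest, the expressing arrays read 9.65, 9.60 and 9.54 and the non-expressing arrays 9.51, 9.62 and 9.53. At 1421867_at they read 9.19, 9.24 and 9.30 against 9.35, 9.26 and 9.37. At 1457635_s_at they read 8.35, 8.33 and 7.92 against 8.29, 8.42 and 8.34, with expressing replicate 3 the lowest of the 6. All 3 overlapped between groups. Their differences were 0.04 (95% interval -0.13 to 0.22), -0.09 (-0.26 to 0.09) and -0.15 (-0.43 to 0.13), with limma adjusted p of 0.854, 0.684 and 0.645, so the probe sets of this gene did not share a sign. The difference at 1457635_s_at rested on expressing replicate 3: it was -0.01 without that array and -0.23 without expressing replicate 1.

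The other 3 Nr3c1 probe sets were dim and all lower in the expressing arrays. At 1421866_at the expressing arrays read 4.45, 4.45 and 4.47 and the non-expressing arrays 4.65, 4.86 and 4.55, without overlap. The difference of -0.23 (SE 0.09, 95% interval -0.44 to -0.02) had an unadjusted p of 0.0380 and a limma adjusted p of 0.377, and it was -0.14 without non-expressing replicate 2. The values at 1431378_at were 4.83, 4.64 and 4.76 against 5.18, 4.87 and 4.80, and those at 1453860_s_at 4.67, 4.97 and 4.98 against 4.96, 5.19 and 5.05, both with overlap. Their differences were -0.21 and -0.19 (limma adjusted p 0.492 and 0.512). With all 6 probe sets averaged, Nr3c1 differed by -0.14 (limma adjusted p 0.408), against 0.04 for the brightest probe set alone, so the sign for this gene depends on which probe sets are read.

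Nr3c2 encodes the mineralocorticoid receptor, which binds aldosterone and, in heart muscle, also glucocorticoids. It binds progesterone too, which acts there mostly as an antagonist. Its 1 probe set, 1435991_at, was above background in all arrays, with 8.39, 8.28 and 8.22 in expressing arrays and 8.25, 7.89 and 8.18 in non-expressing ones. The groups overlapped, with non-expressing replicate 2 the lowest. The difference was 0.19 (SE 0.11, 95% interval -0.05 to 0.44, limma adjusted p 0.504). It was 0.09 without non-expressing replicate 2 and at most 0.26 with another array left out.

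The estrogen receptor genes were below background in each array. Esr1, for estrogen receptor alpha, had 3 probe sets. At 1460591_at the expressing arrays read 5.0005, 5.72 and 5.49 and the non-expressing arrays 4.98, 5.13 and 5.19. This was the widest range of any receptor probe set, 0.74 across the 6 arrays, and expressing replicates 2 and 3 were the highest while replicate 1 lay with the other group. The difference of 0.31 had a 95% interval of -0.08 to 0.69 (limma adjusted p 0.492), and it ran from 0.15 to 0.51 with 1 array left out. At 1421244_at the arrays read 4.99, 5.18 and 5.17 against 5.16, 5.12 and 5.19, and at 1435663_at 3.01, 3.23 and 3.19 against 3.15, 2.86 and 3.27. Those 2 differed by -0.04 and 0.05 (limma adjusted p 0.872 and 0.904) and do not repeat the difference of the first. Esr2, for estrogen receptor beta, read 5.70, 5.95 and 5.88 against 5.97, 5.84 and 5.72 at 1426103_a_at. The groups covered the same range and the difference was 0.00 to 2 decimals (95% interval -0.23 to 0.23, limma adjusted p 0.999).

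Pgrmc1 encodes a heme-binding membrane protein first described as a progesterone-binding component and later found in the endoplasmic reticulum and mitochondria among other places. It had the lowest p of the 23 probe sets. At 1423451_at the expressing arrays read 9.32, 9.39 and 9.31 and the non-expressing arrays 9.07, 9.10 and 9.11. Every expressing array lay above every non-expressing one, with a narrow spread in each group, at 9.34 ± 0.04 and 9.09 ± 0.02 (SD, n = 3 each). The difference of 0.24 (SE 0.07, 95% interval 0.08 to 0.41), a 1.19-fold higher level, had an unadjusted p of 0.0088, where 12.2% of all probe sets had one under 0.05. It did not pass over all probe sets (limma adjusted p 0.269) or over genes (limma adjusted p 0.321). It stayed between 0.22 and 0.26 with any array left out. The 18S ribosomal RNA and beta-actin values and the atrial, fibroblast and Schwann cell sums given above parted the same arrays, and 18.6% of all probe sets did not overlap. The Gapdh measure did not part them.

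Pgrmc2, the closest relative of Pgrmc1, overlapped between the groups at both of its probe sets. Its probe set 1428714_at read 8.72, 8.76 and 8.82 in expressing arrays and 8.84, 8.60 and 8.75 in non-expressing ones. The second, 1452882_at, read 7.30, 7.35 and 7.28 against 7.42, 6.99 and 7.33. Both were above background in all arrays, and non-expressing replicate 2 was the lowest of the 6 at each. The differences were 0.04 (95% interval -0.16 to 0.23) and 0.07 (-0.19 to 0.33), with limma adjusted p of 0.899 and 0.844. Whether the difference of Pgrmc1 was larger than that of Pgrmc2 was not tested.

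Paqr7 encodes the membrane progestin receptor alpha and Paqr8 the beta form, members of a family of receptors that span the membrane and are unrelated to nuclear receptors. Paqr7 at 1460674_at was above background in all arrays, with 8.67, 8.83 and 8.76 in expressing arrays and 8.84, 8.85 and 8.91 in non-expressing ones. The groups did not overlap, but the highest expressing value (8.83) and the lowest non-expressing value (8.84) nearly touched. The difference was -0.12 (SE 0.08, 95% interval -0.29 to 0.06, limma adjusted p 0.579), a 1.08-fold lower level. The other Paqr7 probe set, 1435312_at, was below background at 4.42, 4.36 and 4.32 against 4.26, 4.52 and 4.31 and differed by 0.00 (limma adjusted p 0.994).

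Paqr8 was near or below background at all 4 of its probe sets. At 1444468_at the expressing arrays read 5.74, 6.07 and 5.81 and the non-expressing arrays 5.71, 6.03 and 5.91, and expressing replicate 2 was the only array above background. At 1435246_at the values were 5.88, 5.76 and 5.79 against 5.82, 5.85 and 5.83. The remaining 2 read 5.19, 5.03 and 4.83 against 5.08, 4.79 and 4.90 at 1428958_at, and 3.26, 3.20 and 2.98 against 2.80, 3.26 and 3.25 at 1431042_at. All 4 overlapped between groups, with differences of -0.01, -0.02, 0.09 and 0.04 and limma adjusted p of 0.975, 0.933, 0.783 and 0.924.

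The genes whose values followed a receptor most closely over the 6 arrays were found by the root mean square difference of the log2 values, each centred on its own mean. For Nr3c1 at 1460303_at the nearest were Kcnq3 (0.014), B3gnt2 (0.016) and Gtse1 (0.018), where the median gene was at 0.125. Nr3c1 itself varied little, with an SD of 0.057 over the 6 arrays, so genes that also vary little come out near it. For Pgrmc1 (SD 0.138) the nearest were Tle2 (0.013), Olfr672 (0.026) and Cox17 (0.029), where the median gene was at 0.172. Cox17 encodes a copper chaperone for cytochrome c oxidase and Tle2 a transcriptional corepressor. Olfr672 is an olfactory receptor gene and Kcnq3 a potassium channel gene, and both were below background in all arrays. Olfactory receptors were taken above as genes that ventricle does not use. Still, Olfr672 differed by 0.20 without overlap (SE 0.07, limma adjusted p 0.362), where Pgrmc1 differed by 0.24. Tle2 (0.26) and Cox17 (0.23) did not overlap between groups either. Genes sought for likeness to Pgrmc1 share its difference by construction, but a difference of nearly that size thus also occurred below background. The likeness is a description of 6 arrays, in which 18193 genes were searched, and says nothing of shared function.

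The proteins that act with these receptors were taken from 4 lists, and no gene in them passed over all genes in either direction. Of the other receptors and relatives 10 of 11 were measured, 7 of them above background in all arrays, with 4 higher and 6 lower and a median difference of -0.04, where the median of all genes was -0.02. Esrra, an orphan receptor that drives mitochondrial genes, was at 9.82, 9.63 and 9.70 against 9.68, 9.44 and 9.57, with a difference of 0.15 (limma adjusted p 0.561). Gper1, a membrane estrogen receptor, was below background at 5.31, 5.30 and 5.54 against 5.52, 5.73 and 5.37 (difference -0.16, limma adjusted p 0.624). Both overlapped between groups. The list median was -0.10 without non-expressing replicate 1 and -0.02 without replicate 3 of that group.

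Chaperones that fold and hold the receptors were above background in all arrays for each of the 12 measured of 15 listed. Of these 8 were higher and 4 lower, with a median of 0.03. The median depended on single arrays: leaving out replicate 1 gave 0.11 (expressing) or 0.09 (non-expressing), and leaving out expressing replicate 2 gave 0.05. It was 0.0006 without expressing replicate 3, 0.005 without non-expressing replicate 2 and 0.003 without non-expressing replicate 3. Stub1, a ubiquitin ligase that works with HSP70 and HSP90, read 11.11, 10.95 and 11.00 in expressing arrays and 10.73, 10.64 and 10.73 in non-expressing ones, without overlap (difference 0.31, SE 0.08, limma adjusted p 0.249). Cdc37, which brings kinases to HSP90, read 10.66, 10.64 and 10.61 against 10.40, 10.40 and 10.46, without overlap (difference 0.22, SE 0.07, limma adjusted p 0.349). Groups did not overlap in 3 of the 12 chaperone genes, where 19.0% of all genes did not. Dnajb1, an HSP40 cochaperone named after its values were seen, had the largest difference of the list, 0.60 (95% interval -0.33 to 1.54, limma adjusted p 0.601). It varied widely within each group, at 9.41, 9.82 and 11.00 against 10.17, 9.19 and 9.06.

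Coregulators, which link the bound receptor to transcription, were all above background (18 measured of 20), 11 of them higher and 7 lower with a median of 0.05. Nrip1, a corepressor of nuclear receptors that restrains mitochondrial genes, read 8.88, 8.76 and 8.50 against 8.43, 8.47 and 8.36, without overlap (difference 0.29, SE 0.11, limma adjusted p 0.379). Prmt1, an arginine methyltransferase, read 9.73, 9.83 and 9.63 against 9.18, 9.54 and 9.58, without overlap (difference 0.29, SE 0.12, limma adjusted p 0.408). Groups did not overlap in 5 of the 18, where 19.0% of all genes did not. The median was 0.01 without non-expressing replicate 2 and 0.02 without expressing replicate 3.

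Of the enzymes and carriers that make or inactivate steroids 8 of 11 were measured, and 4 of the 8 were above background in all arrays. Of the 8, 3 were higher and 5 lower, with a median of -0.02, which became 0.0015 when expressing replicate 1 was left out and -0.0017 when non-expressing replicate 2 was. Star, the carrier of cholesterol into mitochondria, was above background in no array, at 5.90, 5.98 and 6.02 against 6.04, 6.03 and 6.11, without overlap (difference -0.09, limma adjusted p 0.667). It was the only 1 of the 8 whose groups did not overlap, where 19.0% of all genes did not. Akr1c14, a hydroxysteroid dehydrogenase that reduces progestins among other substrates, read 6.89, 6.91 and 6.48 against 6.63, 6.56 and 6.65 with overlap (difference 0.15, limma adjusted p 0.671). Neither those 2 nor the other 6 passed.

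**Figure D3:**
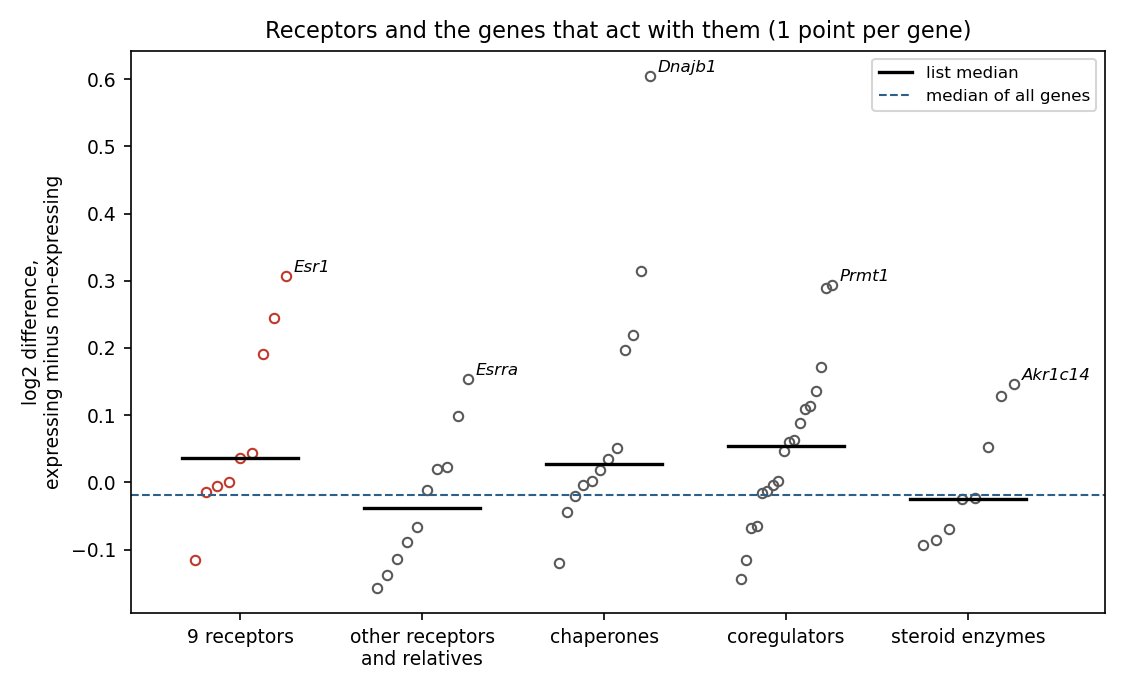
Log2 difference, expressing minus non-expressing (vertical axis), of the 9 receptor genes and of the genes in 4 lists of partners, 1 point per gene read by its brightest probe set; black bars are list medians and the dashed line the median of all genes (-0.02). The list medians lie between -0.04 and 0.05, and the named points are the highest of each list, of which none passed the test.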

How the data were processed

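Total RNA (500 ng) was amplified, labelled with biotin and hybridised, per the labels. The authors deposited 1 log2 value per probe set and array, and the submitters' processing notes name RMA and Partek 6.6, with no role or order and no settings. RMA equalises the arrays, so differences are relative to the other genes. The arrays' number, 3 per group, limits the precision.

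Of 45101 probe sets 64 controls were left out of the tests. Names came from the platform annotation (1 symbol for 34945 probe sets, several for 932, none for 9160). Replicates were numbered in record order.

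Groups were compared with limma 3.58.1 in R 4.3.3 (lmFit, eBayes, two-sided, Benjamini-Hochberg, threshold 0.05) over all 45037 probe sets. For the 18193 genes the same fit was read at the probe set with the highest mean, with p-values adjusted over genes. On simulated data of this comparison over 45037 probe sets the fit recovered 32.8% of changes of 0.5 on the log2 scale, 79.1% of 1 and 98.5% of 2. The 3 simulations each changed 200 probe sets and drew independent noise for each probe set, with nothing shared across probe sets. In the data only 6 probe sets passed, which makes the adjusted threshold stricter than in the simulations. The rates may therefore be too high for these data.

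All receptor probe sets are named. From each partner list every gene past the threshold, or otherwise the 2 with the lowest p, was named, and the nearest genes were sought for the brightest nuclear and the brightest membrane receptor. Members and lists were chosen with earlier results of these data known. Alternatives covered the filter, scaling, prior, title prefix as a random block (statmod 1.5.0), array weights, probe set choice, background level and leaving out each array. Sequences are RefSeq's (GRCm38.p6).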

Additional observations from a re-analysis of the deposited data

How the results depend on the processing

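No receptor probe set or gene and no partner gene passed under any alternative run. The smallest limma adjusted p of a receptor probe set was 0.152, for Pgrmc1 without dim probe sets. Of 310 recomputed differences of receptor probe sets 284 kept their sign. At an unadjusted p under 0.05 there was 1 probe set without dim probe sets, after quantile normalization, with cyclic loess, with the intensity trend and robust prior, with ordinary statistics and with the prefix block, against 2 otherwise, and 1 to 3 with 1 array left out. Non-overlapping probe sets numbered 3 to 7 with 1 array left out, where fewer arrays make overlap rarer.

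Over all probe sets 6 passed, but 31 without dim probe sets, 37 with the trend and robust prior, 2 with ordinary statistics, 43 with array weights and 0 to 44 with 1 array left out. Over genes 12 passed, but 23 with the trend and robust prior, 1 with ordinary statistics, 4 with the prefix block, 26 with array weights, 1 with each gene's probe sets averaged, 2 without _x_at and _s_at probe sets, 4 with the fit made on gene rows alone (chosen after seeing the data) and 0 to 18 with 1 array left out. The cause was not tested. Probe sets above background numbered 19 against the highest TrpnX control.

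Signs turned only where the difference in the main fit was at most 0.07 in size. That was also the median size over the receptor probe sets, and some turned values were larger. Esr2 became 0.0023 with quantile normalization, 0.0029 with median centring, 0.013 with cyclic loess and 0.059 with array weights. Pgr at 1455772_at became 0.021 with quantile normalization and 0.027 with cyclic loess. With array weights Paqr8 at 1431042_at became -0.042 and Paqr7 at 1435312_at -0.022. With each gene's probe sets averaged Nr3c1 became -0.14 and Paqr8 0.026. With 1 array left out the ranges were -0.078 to 0.021 (Esr1, 1421244_at), -0.070 to 0.134 (Esr1, 1435663_at), -0.061 to 0.071 (Esr2), -0.048 to 0.081 (Paqr7, 1435312_at), -0.109 to 0.128 (Paqr8, 1431042_at), -0.055 to 0.0027 (Paqr8, 1435246_at), -0.112 to 0.061 (Paqr8, 1444468_at), -0.121 to 0.051 (Pgr, 1439527_at), -0.047 to 0.033 (Pgr, 1455772_at), -0.028 to 0.090 (Pgrmc2, 1428714_at) and -0.060 to 0.155 (Pgrmc2, 1452882_at).

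No paired analysis was possible because the labels name no replicates and the sample titles of the groups share fewer than 2 numbers (1 number occurs in both).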
